A study of Mus musculus with 6 samples.

Results

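The genes described here encode 6 peroxiredoxins (Prdx1 to Prdx6), cytosolic thioredoxin (Txn1), its reductase (Txnrd1), the thioredoxin-binding protein TXNIP (Txnip) and glutathione reductase (Gsr). They were chosen by name as members of the thiol-based peroxide defence, with earlier results of these data known. All 10 were matched by symbol to 1 Ensembl ID each among the 28786 IDs of the count table. The RNA came from haematopoietic stem cells (HSCs), the cells that renew all blood lineages, taken at an age of 6 to 8 weeks from C57BL/6 mice of wild type genotype. The cells were sorted from bone marrow of the long bones as lineage-negative, Sca-1-positive, c-Kit-positive, CD48-negative and CD150-positive, and divided by TMRM. This fluorescent dye is taken up by mitochondria, more so at a higher membrane potential. There were 3 libraries labelled TMRM_High and 3 labelled TMRM_Low, each from 1500 cells, with no other treatment or genotype named. Whether each library had its own donor mice is not stated in the labels; p-values therefore reflect library-to-library spread alone, and this may be technical.

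Peroxiredoxins are abundant enzymes that reduce hydrogen peroxide with a reactive cysteine, and most of them are returned to the active form by thioredoxin. Thioredoxin is in turn reduced by thioredoxin reductase, and glutathione reductase keeps glutathione, the other large thiol pool of the cell, reduced; both reductases draw on NADPH. TXNIP binds reduced thioredoxin and also restrains glucose uptake, and loss of Txnip in mice is known to impair the maintenance of HSCs. Mitochondria with a high membrane potential are a known source of superoxide and peroxide.

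Gsr and Prdx5 were higher, and Prdx1, Prdx2 and Txnip were lower, in TMRM-high libraries. The changes ran from 2.4-fold higher for Gsr to 28.5% lower for Txnip. Prdx3, Prdx4, Prdx6, Txn1 and Txnrd1 did not pass the test. The test was edgeR's quasi-likelihood test across 13662 genes with Benjamini-Hochberg adjustment, and a gene was called at an adjusted p below 0.05. Thus 5 of 10 genes were called, against 11.0% of all genes tested. Of the 10, 2 were higher, against 5.84%, and 3 lower, against 5.12%. The groups did not overlap for these same 5 genes, against 35.4% of all genes. As the 10 genes were chosen with earlier results of these data known, these shares are a description and not a test of enrichment. All 10 passed the filter on low counts, with 457 to 10538 counts per gene and library. Their median log2 fold change, TMRM-high minus TMRM-low, was -0.09, beside -0.03 for all genes tested.

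The totals of the estimated counts lay between 14270069 and 22070594 per library. The TMRM-high libraries were much more alike than the TMRM-low ones, with a chi-square per degree of freedom of 3.98 to 6.74 for pairs of TMRM-high and 46.0 to 51.4 for pairs of TMRM-low libraries; pure counting noise would give about 1. Of 10 HSC markers, all with counts in both groups, 4 were lower and 0 higher, and their summed level was 315 to 324 CPM in TMRM-high and 665 to 704 CPM in TMRM-low libraries (CPM, the gene's count scaled to the library's size, is the unit of all levels below). Of 13 granulocyte and monocyte markers, 13 were higher, and their summed level was 16320 to 16700 CPM in TMRM-high and 3996 to 4320 CPM in TMRM-low libraries. Of 12 B lymphoid markers 11 were higher, with sums of 1802 to 1827 CPM in TMRM-high libraries, against 427 to 536 CPM in TMRM-low libraries. Of 12 erythroid markers 6 were higher (302 to 333 CPM in TMRM-high, 120 to 157 CPM in TMRM-low libraries), of 7 mast cell and basophil markers 4 (303 to 316 CPM in TMRM-high, 44.9 to 66.6 CPM in TMRM-low libraries) and of 7 megakaryocyte markers 2 (396 to 405 CPM in TMRM-high, 104 to 141 CPM in TMRM-low libraries). Of 10 macrophage markers 2 were higher and 2 lower (125 to 146 CPM in TMRM-high, 37.5 to 46.0 CPM in TMRM-low libraries), and of 9 T and NK lymphoid markers 1 was higher and 5 lower (608 to 617 CPM in TMRM-high, 365 to 439 CPM in TMRM-low libraries). Single genes set the last 2 sums: without Nkg7 the T and NK lymphoid sum was 53.2 to 58.8 CPM in TMRM-high, against 173 to 201 CPM in TMRM-low libraries, and without Vcam1 the macrophage sums overlapped (33.4 to 47.9 CPM in TMRM-high, 36.4 to 46.0 CPM in TMRM-low libraries). The other 6 sums kept their direction without their most abundant marker. No marker of these lists was at 0 in all libraries of a group. The sums differed between the same libraries that are compared below, and their part in the results was not tested. In sorted bulk samples, fewer cells of a type and less RNA per cell cannot be told apart.

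**Figure D1:**
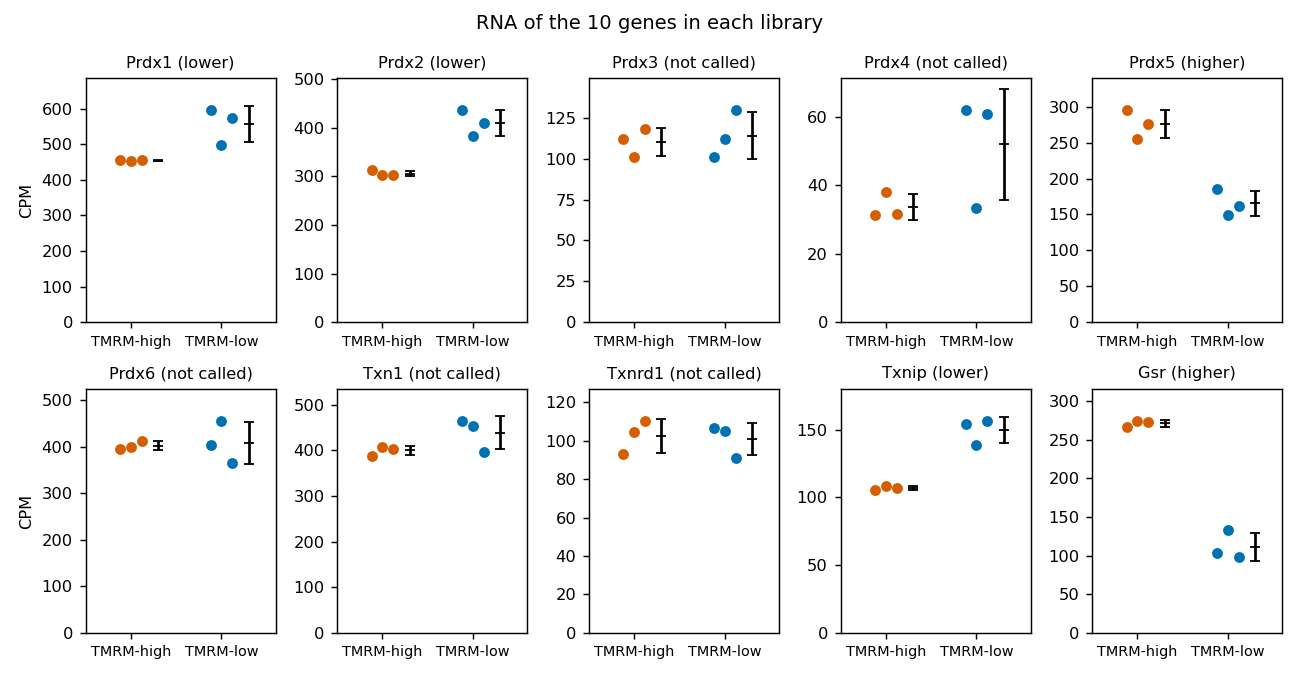
RNA of each gene in CPM (vertical axes, each starting at 0) in the 3 TMRM-high and the 3 TMRM-low libraries (points), with mean and SD (black). The TMRM-high points of Gsr and Prdx5 lie above, and those of Prdx1, Prdx2 and Txnip below, all TMRM-low points.

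Prdx1 and Prdx2, the abundant 2-Cys peroxiredoxins of the cytosol, were both lower in TMRM-high libraries. Prdx1 (ENSMUSG00000028691, chromosome 4, 116685544 to 116700822 on GRCm38) had 455, 452 and 455 CPM in TMRM-high libraries, against 596, 499 and 574 CPM in TMRM-low libraries. The TMRM-high values were nearly the same and all lay below the lowest TMRM-low value. The log2 fold change was -0.29 (SE 0.0731, edgeR adjusted p = 0.0433), a level lower by 18.4%. Prdx2 (ENSMUSG00000005161, chromosome 8, 84969587 to 84974834) is the most studied peroxiredoxin of red cells, whose haemoglobin it helps to protect. It had 313, 303 and 302 CPM in TMRM-high libraries, against 436, 384 and 410 CPM in TMRM-low libraries. Again the groups did not overlap, and the log2 fold change was -0.42 (SE 0.0659, edgeR adjusted p = 0.00694). Of the marker sums given above, the erythroid one was higher and the HSC one lower in the same TMRM-high libraries. Their part in the change of Prdx2 was not tested. The call of Prdx1 was lost without any 1 TMRM-high library (edgeR adjusted p = 0.174 to 0.186) and without TMRM-low replicate 1 (0.0735) or 3 (0.0670), and that of Prdx2 without TMRM-high replicate 2 (0.0577) or 3 (0.0613). The log2 fold change stayed negative in each case, between -0.36 and -0.23 for Prdx1 and between -0.47 and -0.37 for Prdx2 with 1 library left out. Prdx2 shares exon bases with neighbours on the opposite strand, 173 with Junb and 177 with Rnaseh2a. Such reads cannot be told apart where strand is not used, and no step that marks strand is described; Junb was higher (log2 fold change 0.34, SE 0.0657, edgeR adjusted p = 0.0177) and Rnaseh2a did not pass (-0.27, SE 0.118, edgeR adjusted p = 0.194).

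The promoters of both genes, 250 bases before to 50 after the RefSeq start on GRCm38.p6, are shown because both genes fell. They are read 5′ to 3′ on the gene's strand (plus for both), from chr4:116685349-116685648 and chr8:84969372-84969671. Capitals mark any of 4 motifs, searched on both strands. The first is the core of the antioxidant response element, TGACNNNGC, to which the oxidative stress factor NRF2 binds. The others are an E-box (CACGTG), the CCAAT box, and the carbohydrate response element. That element was searched as CACGNG on the 5′ side, a spacer of 5 bases, and then a further piece that reads CNCGNG, and its first piece can overlap an E-box.
Prdx1: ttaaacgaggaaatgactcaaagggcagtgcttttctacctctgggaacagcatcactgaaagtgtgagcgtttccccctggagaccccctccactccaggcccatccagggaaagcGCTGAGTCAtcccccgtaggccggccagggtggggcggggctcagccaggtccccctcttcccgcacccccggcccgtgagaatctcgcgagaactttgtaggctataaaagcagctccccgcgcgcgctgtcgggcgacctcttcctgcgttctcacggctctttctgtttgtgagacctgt
Prdx2: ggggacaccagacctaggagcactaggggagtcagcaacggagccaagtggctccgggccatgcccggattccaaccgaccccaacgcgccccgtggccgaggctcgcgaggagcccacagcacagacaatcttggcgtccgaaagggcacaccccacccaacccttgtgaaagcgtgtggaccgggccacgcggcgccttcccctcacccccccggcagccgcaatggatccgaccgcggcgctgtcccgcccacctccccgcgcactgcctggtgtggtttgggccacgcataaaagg
The Prdx1 window held 1 antioxidant response element core, on the other strand, from base -133 to base -125 before the start. Of 32851 promoter windows in the table, 12.4% held this core. It was also present at 1 of the 3 starts listed for Txnrd1 (bases -92 to -84), a gene that did not pass. The Prdx2 window held none of the 4 motifs. Both windows were rich in G and C, at 60.7% and 68.7%, beside a median of 52.7% over all windows.

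Prdx3 and Prdx5 encode the peroxiredoxins of mitochondria. PRDX3 is confined to that organelle, whereas PRDX5 is also found in peroxisomes and the cytosol. Prdx5 (ENSMUSG00000024953, chromosome 19, 6906697 to 6910106) had 295, 256 and 277 CPM in TMRM-high libraries, against 185, 150 and 161 CPM in TMRM-low libraries. All TMRM-high values exceeded all TMRM-low values, and the level was 1.67-fold higher (log2 fold change 0.74, SE 0.0993, edgeR adjusted p = 0.00382). Leaving out any 1 library kept the call. Prdx3 (chromosome 19, 60864051 to 60874556) had 112, 101 and 118 CPM in TMRM-high and 101, 112 and 130 CPM in TMRM-low libraries. Its groups overlapped, with a log2 fold change of -0.05 and a 95% interval of -0.33 to 0.23. The ratio of Prdx5 to Prdx3 reads, which does not depend on how libraries are scaled, was 2.64, 2.53 and 2.34 in TMRM-high libraries, against 1.83, 1.34 and 1.24 in TMRM-low libraries. Prdx5 overlaps Trmt112, a methyltransferase cofactor gene on the opposite strand, over 409 exon bases or 19.1% of its exon sequence. Trmt112 itself was at 41.6, 37.2 and 32.2 CPM in TMRM-high and 40.2, 51.3 and 52.9 CPM in TMRM-low libraries and did not pass (log2 fold change -0.38, SE 0.175, edgeR adjusted p = 0.226).

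The Prdx5 promoter lies on the minus strand at chr19:6910057-6910356 and held none of the 4 motifs; it is shown beside those of the genes that fell.
Prdx5: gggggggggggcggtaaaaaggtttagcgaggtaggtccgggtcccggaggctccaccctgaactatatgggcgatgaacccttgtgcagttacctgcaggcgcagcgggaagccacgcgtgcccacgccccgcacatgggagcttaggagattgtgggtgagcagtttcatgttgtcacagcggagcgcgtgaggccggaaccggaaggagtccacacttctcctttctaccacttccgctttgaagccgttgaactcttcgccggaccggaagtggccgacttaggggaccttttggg
Its content of G and C was 61.0%, close to that of Prdx1.

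Prdx4 encodes the peroxiredoxin of the endoplasmic reticulum, which turns peroxide into disulfides for protein folding, and was the least abundant peroxiredoxin gene here. It had 31.2, 38.2 and 31.7 CPM in TMRM-high libraries, against 62.0, 33.3 and 61.0 CPM in TMRM-low libraries. The second TMRM-low library lay among the TMRM-high ones, so the groups overlapped. The log2 fold change was -0.63 (SE 0.253, edgeR adjusted p = 0.167, unadjusted p = 0.0390), with a 95% interval of -1.22 to -0.04. Without TMRM-low replicate 2 it was -0.86 and passed (edgeR adjusted p = 0.0138). Prdx6 encodes the 1-Cys peroxiredoxin, which also has phospholipase activity and is reduced by glutathione. It had 395, 400 and 413 CPM in TMRM-high and 404, 455 and 364 CPM in TMRM-low libraries. The TMRM-high values lay within the range of the TMRM-low ones, and the log2 fold change was -0.02 with a 95% interval of -0.22 to 0.18. Summed over the 6 peroxiredoxin genes, the level was 1601, 1550 and 1596 CPM in TMRM-high and 1784, 1633 and 1700 CPM in TMRM-low libraries.

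**Figure D2:**
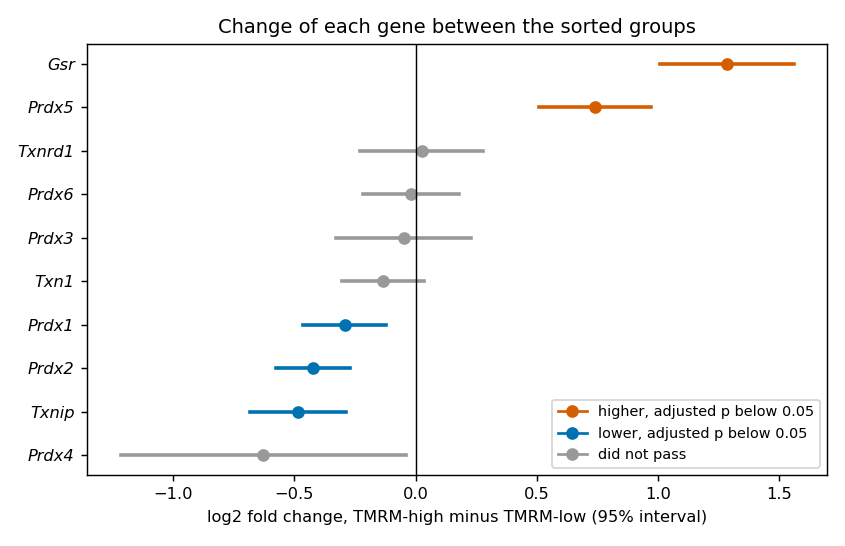
Log2 fold change of each gene, TMRM-high minus TMRM-low (horizontal axis), with its 95% interval from the edgeR fit (lines) and colour by call. Gsr (1.28) and Prdx5 (0.74) lie to the right of 0, and Prdx1 (-0.29), Prdx2 (-0.42) and Txnip (-0.48) to the left.

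Of the thioredoxin system, the inhibitor gene Txnip fell, whereas the genes of thioredoxin and its reductase did not pass. Txn1 had 389, 407 and 404 CPM in TMRM-high and 465, 454 and 397 CPM in TMRM-low libraries. The third TMRM-low library lay within the TMRM-high range, and the log2 fold change was -0.13 (SE 0.0725, edgeR adjusted p = 0.305), with a 95% interval of -0.30 to 0.04. Without TMRM-low replicate 3 it was -0.20 and passed (edgeR adjusted p = 0.0416). Txnrd1 had 93.0, 105 and 110 CPM in TMRM-high and 107, 105 and 91.3 CPM in TMRM-low libraries. These values overlapped almost fully, with a log2 fold change of 0.02 and a 95% interval of -0.23 to 0.28. Txnip (ENSMUSG00000038393, chromosome 3, 96557957 to 96561883) had 106, 108 and 107 CPM in TMRM-high libraries, against 154, 138 and 156 CPM in TMRM-low libraries. The TMRM-high values were within a few CPM of each other and all lay below the TMRM-low ones. The log2 fold change was -0.48 (SE 0.0851, edgeR adjusted p = 0.0115), a level that fell by 28.5%. Its call was lost without any 1 TMRM-high library (log2 fold change -0.49 to -0.47, edgeR adjusted p = 0.0782 to 0.0850). An annotated antisense gene, not analysed here, overlaps 606 exon bases of Txnip, or 19.4% of its exon sequence, and reads from there cannot be told apart.

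Transcription of Txnip is known to follow glucose through the factors MondoA (gene Mlxip) and ChREBP (gene Mlxipl), which bind carbohydrate response elements with their partner MLX (gene Mlx). The promoter is shown because it held such an element; it lies on the plus strand at chr3:96557707-96558006, with capitals as above.
Txnip: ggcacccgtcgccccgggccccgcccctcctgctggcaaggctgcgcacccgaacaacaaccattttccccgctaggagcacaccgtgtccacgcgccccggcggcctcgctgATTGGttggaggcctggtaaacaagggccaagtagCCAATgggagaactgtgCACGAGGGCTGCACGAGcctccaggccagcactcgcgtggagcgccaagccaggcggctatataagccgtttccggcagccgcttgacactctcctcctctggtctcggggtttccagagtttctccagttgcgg
The carbohydrate response element ran from base -85 to base -69 before the start, and 0.365% of all promoter windows held a match to it. There were also 2 CCAAT boxes, at bases -137 to -133 and -102 to -98, in a window type of which 37.4% held at least 1. Of 8 genes with a promoter in the table, Txnip was the only 1 with the carbohydrate response element. Of the factors, Mlxip was at 81.2, 84.6 and 87.3 CPM in TMRM-high and 59.4, 69.5 and 89.9 CPM in TMRM-low libraries and did not pass (log2 fold change 0.21, SE 0.159, edgeR adjusted p = 0.472). Mlx was at 49.0, 54.1 and 55.1 CPM in TMRM-high and 28.6, 37.6 and 44.7 CPM in TMRM-low libraries (0.51, SE 0.188, edgeR adjusted p = 0.133). Mlxipl was at 7.94, 6.57 and 6.04 CPM in TMRM-high and 3.18, 4.31 and 3.92 CPM in TMRM-low libraries (0.85, SE 0.382, edgeR adjusted p = 0.214). Neither passed. Every TMRM-high value of Mlx and Mlxipl lay above every TMRM-low value, and groups did not overlap, in either direction, for 35.4% of all genes tested. Both were chosen after their values were seen.

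Gsr, the glutathione reductase gene (ENSMUSG00000031584, chromosome 8, 33652523 to 33698163), had the largest change of the 10 genes. It had 266, 274 and 273 CPM in TMRM-high libraries, against 104, 132 and 97.9 CPM in TMRM-low libraries. All TMRM-high values lay far above the highest TMRM-low value. The log2 fold change was 1.28 (SE 0.118, edgeR adjusted p = 0.000617), with a 95% interval of 1.01 to 1.56. It passed in all 15 alternatives run for it, with log2 fold changes of 1.20 to 1.43, including the one that sums the TMRM-high libraries into 1. No base of its exons is shared with another annotated gene. The ratio of Gsr to Txnrd1 reads, the reductases of the 2 thiol pools, was 2.86, 2.62 and 2.48 in TMRM-high libraries, against 0.973, 1.26 and 1.07 in TMRM-low libraries, with no overlap.

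Over 7329 other genes with a mean of at least 20 CPM, the profiles across the 6 libraries nearest to that of Gsr were those of Lrrc40, Ccnl1 and Rab44. Their root-mean-square distances to Gsr were 0.0771, 0.0780 and 0.0829 on the log2 CPM scale, each profile being centred on its own mean. Their log2 fold changes were 1.32, 1.27 and 1.41, beside 1.28 for Gsr. Near profiles here thus largely mean a similar difference between the groups, and shared regulation was not tested. Rab44, a large Rab GTPase gene, averaged 260 ± 2.81 CPM in TMRM-high libraries, against 98.0 ± 10.2 CPM in TMRM-low libraries (SD, n = 3 each). For Prdx4, which had the most negative log2 fold change of the 10 genes, the nearest profiles were those of Cavin1 (0.0632), Kctd10 (0.0812) and Rpl5 (0.0909).

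Set in order of level per kb of the principal transcript, Txn1 RNA was the most abundant of the 10 in both groups, at 370 to 387 CPM per kb in TMRM-high and 378 to 442 CPM per kb in TMRM-low libraries. Txnrd1 was the least abundant, at 26.4 to 31.3 CPM per kb in TMRM-high and 25.9 to 30.2 CPM per kb in TMRM-low libraries. The order of the others was Prdx5, Prdx1, Prdx2, Prdx6, Gsr, Prdx3, Txnip and Prdx4 in TMRM-high libraries. Of neighbours in that order, Txnip and Prdx4 alone overlapped, at 37.8 to 38.8 and 31.5 to 38.6 CPM per kb. In TMRM-low libraries the order was Prdx2, Prdx1, Prdx6, Prdx5, Prdx3, Txnip, Prdx4 and Gsr. There Prdx2 and Prdx1 overlapped, at 238 to 271 and 218 to 260 CPM per kb, as did Txnip, Prdx4 and Gsr, at 49.5 to 56.0, 33.7 to 62.7 and 36.6 to 49.5 CPM per kb. Prdx5 was thus in place 2 in TMRM-high libraries, against 5 in TMRM-low libraries, with Gsr in place 6 in TMRM-high libraries, against 9 in TMRM-low libraries. With the length of all exons merged, Prdx5 was in place 3 in TMRM-high libraries, against 6 in TMRM-low libraries, with Gsr in place 5 in TMRM-high libraries, against 8 in TMRM-low libraries.

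**Figure D3:**
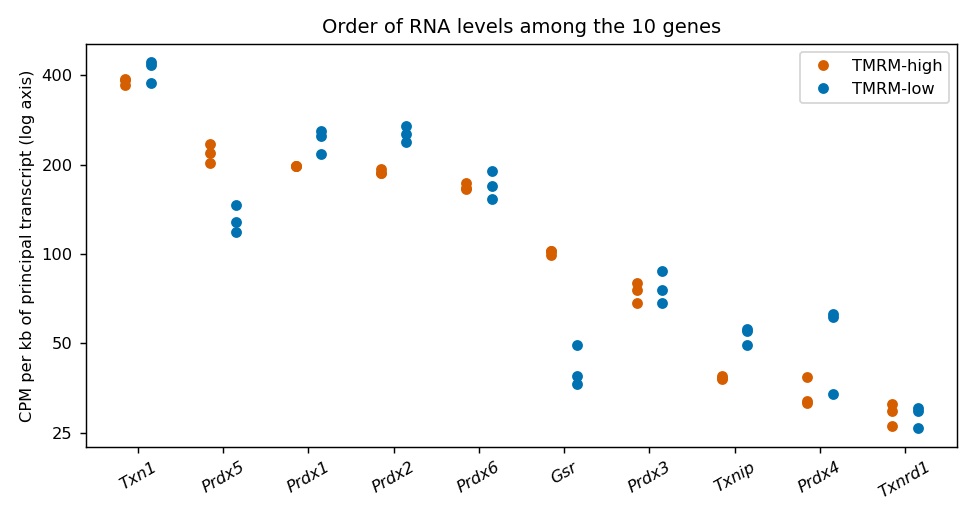
Level of each gene in CPM per kb of its principal transcript (vertical log axis), 1 point per library, with genes ordered by their TMRM-high mean. Prdx5 and Gsr stand higher in TMRM-high (orange) than in TMRM-low libraries (blue), and Txn1 leads in both.

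The coefficient of variation between libraries differed between the groups. Over the 10 genes its median was 2.37% in TMRM-high libraries, against 10.01% in TMRM-low libraries, and it was larger in TMRM-low libraries for 9 of 10 genes. Txnrd1 was the exception, at 8.62% in TMRM-high libraries, against 8.28% in TMRM-low libraries. Prdx1 varied by 0.331% in TMRM-high libraries, against 9.12% in TMRM-low libraries. The TMRM-high value is smaller than counting noise alone would give on average at its 6551 to 10032 counts per library. The difference in spread was not particular to these 10 genes. Across the transcriptome, for genes averaging 50 or more counts, the biological coefficient of variation (spread beyond counting noise) was 7.28% in TMRM-high libraries. In TMRM-low libraries it was 42.5%.

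Around these genes, 91 other redox genes in 9 lists were examined, of which 87 were tested, 11 were higher and 3 lower. Of all genes tested, edgeR called 5.84% higher and 5.12% lower, and these shares stand beside each count of edgeR calls below. At an unadjusted edgeR p below 0.05, 1720 of the 13662 genes tested were higher and 1775 lower. DESeq2 called 1324 of the genes tested higher and 1337 lower, and limma voom 774 and 862. The lists, too, were chosen with earlier results of these data known. Among 9 other thioredoxin system, sulfiredoxin and sestrin genes, edgeR called none, with 0 higher and 2 lower at an unadjusted p below 0.05; DESeq2 called 2 lower and limma voom 0. Their median log2 fold change was -0.03. Txn2, the mitochondrial thioredoxin gene, was at 181, 173 and 175 CPM in TMRM-high and 165, 212 and 163 CPM in TMRM-low libraries, with overlapping groups. Txnl1, a thioredoxin-like gene, did not pass either (log2 fold change 0.10). Among 12 tested genes of glutathione synthesis, glutathione peroxidases and glutaredoxins, edgeR, DESeq2 and limma voom called 0, and 0 had an unadjusted edgeR p below 0.05. Gpx1, the abundant cytosolic glutathione peroxidase gene, was at 1831, 1733 and 1755 CPM in TMRM-high and 1789, 1500 and 1559 CPM in TMRM-low libraries (log2 fold change 0.13, SE 0.0696, edgeR adjusted p = 0.283), and passed without TMRM-low replicate 1 (0.22, edgeR adjusted p = 0.0252). Gpx4, which protects membrane lipids, had a log2 fold change of -0.11 (SE 0.0606, edgeR adjusted p = 0.328). With 12 genes tested, the 0 called in this list stands beside 11.0% of all genes.

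Glutathione S-transferase genes, whose enzymes attach glutathione to reactive compounds, included 2 that were higher of 16, none lower and a median of -0.12. Gstm1 had 381, 383 and 402 CPM in TMRM-high libraries, against 184, 117 and 149 CPM in TMRM-low libraries (log2 fold change 1.37, SE 0.149, edgeR adjusted p = 0.00135). Mgst2, a membrane-bound member, had 64.5, 68.0 and 64.8 CPM in TMRM-high libraries, against 27.0, 22.8 and 17.7 CPM in TMRM-low libraries (1.55, SE 0.183, edgeR adjusted p = 0.00198). Gstm genes are close copies of each other, so counts of Gstm1 can be split among them and are uncertain. Of superoxide dismutases and catalase, 1 of 3 tested was called. Sod1, the cytosolic dismutase, was at 814, 766 and 786 CPM in TMRM-high and 886, 973 and 893 CPM in TMRM-low libraries (-0.22, SE 0.0554, edgeR adjusted p = 0.0443). Cat (0.31, SE 0.103, edgeR adjusted p = 0.104) and Sod2, the mitochondrial dismutase (-0.10, SE 0.104, edgeR adjusted p = 0.603), did not pass.

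Of 15 genes of the NRF2 pathway, 3 were higher, 2 lower and 10 did not pass, with a median of -0.11. The 3 that rose encode factors that share DNA sites with NRF2. They were Mafk (0.83, SE 0.110, edgeR adjusted p = 0.00324) and Mafg (0.75, SE 0.108, edgeR adjusted p = 0.00469), small MAF partners, and Bach1, a repressor (1.06, SE 0.221, edgeR adjusted p = 0.0226). Fth1, the ferritin heavy chain gene, was lower (-0.29, SE 0.0502, edgeR adjusted p = 0.0103), as was Keap1, the NRF2 inhibitor (-0.52, SE 0.131, edgeR adjusted p = 0.0443), which was named after its values were seen. Of 12 NADPH supply genes 2 were higher and 0 lower, with a median of 0.08. These were Nadk2, the mitochondrial NAD kinase gene (0.91, SE 0.203, edgeR adjusted p = 0.0298), and Pgd, an enzyme gene of the pentose phosphate pathway (0.53, SE 0.127, edgeR adjusted p = 0.0377).

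Of 8 tested NADPH oxidase genes, among them those of the superoxide source of phagocytes, 2 were higher and 0 lower, with a median of 0.22. Cybb, the catalytic subunit, had 70.2, 75.4 and 77.5 CPM in TMRM-high libraries, against 15.0, 23.7 and 6.97 CPM in TMRM-low libraries (2.29, SE 0.389, edgeR adjusted p = 0.0105). The other was Ncf4, a cytosolic subunit (0.91, SE 0.221, edgeR adjusted p = 0.0391). The granulocyte and monocyte marker sum was higher in the same libraries, as given above. Of 9 genes of oxidative folding in the endoplasmic reticulum, the compartment of PRDX4, 2 were higher and 0 lower, with a median of 0.04. Ero1l (1.16, SE 0.277, edgeR adjusted p = 0.0377) and Ero1lb (1.36, SE 0.303, edgeR adjusted p = 0.0289) encode the oxidases that produce peroxide during folding. Of 7 arrestin-domain and Mondo factor genes, edgeR called 0, with 1 higher and 1 lower at an unadjusted p below 0.05; DESeq2 called 1 lower and limma voom 0. The list held Arrdc1, an arrestin-domain relative of Txnip, at 103, 97.0 and 103 CPM in TMRM-high and 74.8, 114 and 82.0 CPM in TMRM-low libraries, with overlapping groups; it passed without TMRM-low replicate 2 (0.37, edgeR adjusted p = 0.0419). Of the 14 called genes in these lists, Gstm1, Mgst2 and Mafk kept their calls with any 1 library left out, and Mafg lost its call without TMRM-high replicate 1. The other 10 lost theirs without each of the 3 TMRM-high libraries, the adjusted p-values of lost calls lying between 0.0505 and 0.219. Without a TMRM-low library, Keap1 and Nadk2 (replicate 1), Sod1 and Ero1l (replicate 2) and Keap1 and Ncf4 (replicate 3) lost theirs, at adjusted p-values of 0.0538 to 0.0750. With the 3 TMRM-high libraries summed into 1, 0 of these 14 genes passed, Gstm1, Mgst2 and Mafk included (adjusted p = 0.0509 to 0.9998 over the 14). Sod1 also lost its call with scaling to total counts (adjusted p = 0.0716) and with no filter on low counts (0.0607), and Ero1lb with limma voom (0.124).

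**Figure D4:**
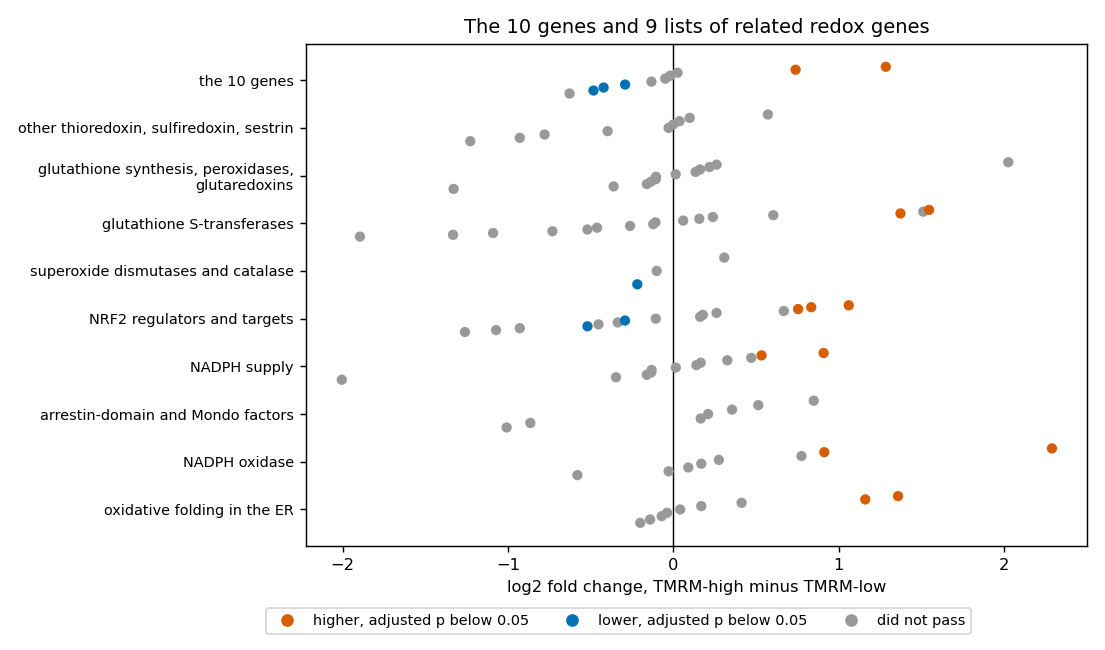
Log2 fold change, TMRM-high minus TMRM-low (horizontal axis), of each tested gene (points) in the set of 10 and in the 9 lists, coloured by edgeR call. Called genes lie on both sides of 0 among the 10, whereas Gstm1, Mgst2 and Cybb lie farthest to the right among called genes of the lists.

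**Figure D5:**
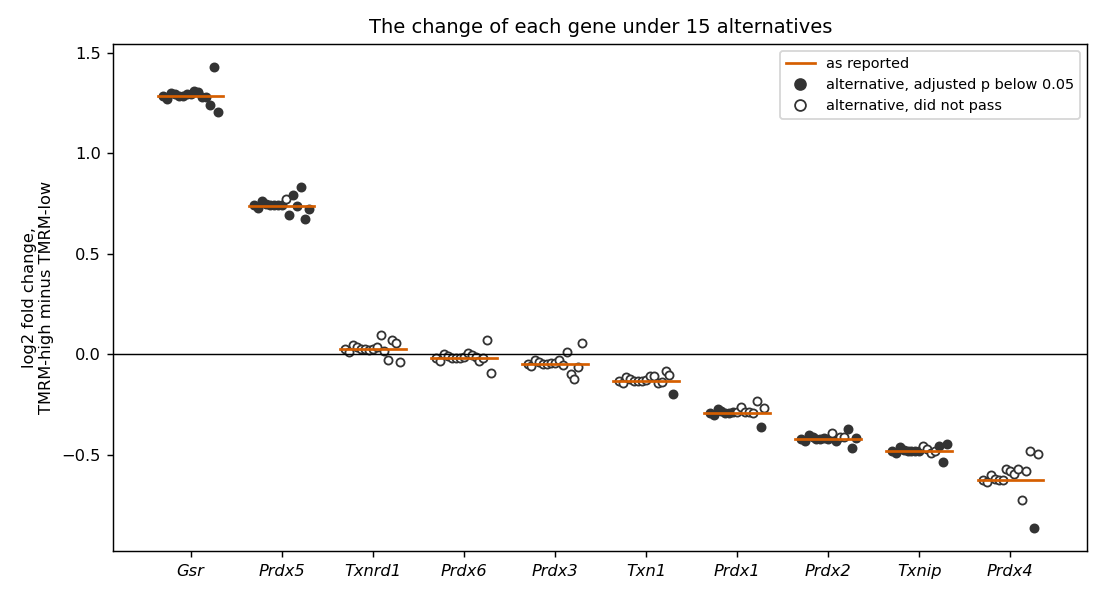
Log2 fold change of each gene as reported (orange line) and under 15 alternatives (points, filled where the edgeR, DESeq2 or limma voom adjusted p was below 0.05), vertical axis TMRM-high minus TMRM-low. Gsr passed in 15 of 15 and Prdx5 in 14 of 15, and the 5 called genes kept their sign in every alternative shown.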

How the data were processed

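The series holds 6 RNA-seq libraries of sorted mouse HSCs, made after a published single-cell method with 13 cycles of PCR and sequenced as paired reads of 150 bases, per the labels' protocols. The deposited values are estimated counts per Ensembl gene ID, not scaled to depth and partly not whole. Per the submitters' processing notes, the authors' tools were Trim Galore 0.5.0 and Salmon (given there as 0.03.1), with GRCm38 as the build; their settings and annotation were not stated. The libraries carry no molecular identifiers, so PCR copies count as reads.

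Counts were rounded to whole numbers. Genes were kept by filterByExpr with the group, libraries were scaled by TMM, and edgeR 4.0.16 in R 4.3.3 fitted robust quasi-likelihood models in which group was the sole factor (limma 3.58.1, DESeq2 1.42.0 for alternatives). The SE is the log2 fold change divided by the square root of F, and 95% intervals use the t distribution with the fit's degrees of freedom. The script was tested on simulated data that gave both groups the same spread. It called 7.92% of 1.5-fold, 30.4% of 2-fold and 62.4% of 4-fold changes put into randomly chosen genes. A gene that did not pass may therefore still differ. Values given beside a gene are CPM from rounded counts and TMM-scaled library sizes; mean ± SD are over n = 3 libraries.

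Symbols were matched for 27728 of 28786 IDs, and positions, exons and transcript lengths come from GENCODE M21 on GRCm38. Promoters come from RefSeq (GRCm38.p6) and were matched for 8 of 10 genes; those of Gsr and Prdx6 were not used here. Salmon divides reads between similar transcripts: pseudogenes of Prdx1 (Gm7204, Gm21399) and Prdx2 (Tdpx-ps1) and the paralog Prdx6b had at most 3.02 counts over the 6 libraries. The members and lists were chosen with earlier results of these data known. Genes named are the 10 members and up to 4 called genes with the smallest p in each list. Where fewer than 2 were called, up to 2 others with the highest mean CPM are named. The 3 genes nearest in profile to the members with the highest and the most negative log2 fold change are named too.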

Additional observations from a re-analysis of the deposited data

How the results depend on the processing

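Deviations from the group means correlated at -0.01, 0.02 and 0.02 between same-numbered libraries. These values show no shared deviation. They cannot exclude that replicate numbers pair the libraries, as the TMRM-high libraries deviated little from each other. With the replicate number as a block (a paired fit on numbers alone), 582 genes were higher and 449 lower, in place of 798 and 700, and of the 10 genes 2 were higher and 2 lower; Prdx1 did not pass (adjusted p = 0.0560). DESeq2 called 1324 genes higher and 1337 lower. With the TMRM-high libraries summed into 1 library, 80 genes were higher and 34 lower, and of the 10 genes 1 was higher (Gsr, adjusted p = 0.0479) and 0 lower, Prdx5 having an adjusted p of 0.206; there the spread is estimated in TMRM-low alone and assumed for the lone TMRM-high library. Asking for 2-fold as well left 434 genes higher and 300 lower, and 1 and 0 of the 10 genes. An adjusted p below 0.10 gave 1190 higher and 1138 lower. With 1 library left out, 250 to 1398 genes were higher and 181 to 1174 lower; of the 10 genes, 2 were higher each time and 0 to 4 lower. RLE, upper-quartile and total-count scaling and both filters on low counts kept all 5 calls. In the lists of related genes, 251 of 306 counts were equal to the reported one or within 1.5 times of it. Counts of 0 in both are included, and many reported counts were 0, so this says little about counts above 0. Of the 14 calls, 3 (Sod1, Bach1, Ero1lb) were lost under the replicate block (edgeR adjusted p = 0.0583 to 0.0861). For Prdx3, Prdx6 and Txnrd1 the sign turned in 2 of 15 alternatives each, none of them called. The cause of these differences was not tested.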

Other observations

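Genes chosen after their values were seen are given here as values. Srxn1, which encodes sulfiredoxin, the enzyme that repairs overoxidised peroxiredoxins, had 8.39, 8.41 and 6.04 CPM in TMRM-high libraries, against 15.6, 17.4 and 10.7 CPM in TMRM-low libraries. The groups did not overlap, but the gene did not pass (log2 fold change -0.93, SE 0.320, edgeR adjusted p = 0.112). Nfe2l2, the gene of NRF2, was at 79.7, 89.7 and 77.0 CPM in TMRM-high and 123, 96.9 and 91.5 CPM in TMRM-low libraries and did not pass (-0.34, SE 0.137, edgeR adjusted p = 0.172). Arrdc4, an arrestin-domain relative of Txnip, was at 10.4, 8.72 and 8.47 CPM in TMRM-high and 14.5, 25.1 and 16.0 CPM in TMRM-low libraries (-1.01, SE 0.305, edgeR adjusted p = 0.0764). All 3 were below their TMRM-low values in every TMRM-high library. Groups did not overlap, in either direction, for 35.4% of all genes tested.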
